A study of Mus musculus with 2 samples.

Results

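The genes described here load and display peptides for T cells. They were chosen by name: every measured gene with a symbol starting with H2-, which are the mouse major histocompatibility complex (MHC) genes, and 18 listed genes of peptide production, transport and loading. In all, 51 genes of the 22180 with a probe set of a single symbol were found, 34 H2- symbols and 17 of the 18 listed genes. Cd74, the remaining listed gene, was read by a probe set that also names a microRNA gene, so it stands outside the 51 and its values are given apart. Of the 51, 34 passed a signal floor of 4.38 on the log2 scale, the median of all named values, on at least 1 array. Messenger RNA was measured on 2 Affymetrix arrays, 1 of wildtype RAW264.7 cells, an established macrophage cell line of mouse, and 1 of RAW264.7 cells labelled HuR-deficient. HuR is an RNA-binding protein encoded by Elavl1. Both cultures had the same stimulus for 8 hours: poly(I:C) of high molecular weight (HMW), which mimics viral double-stranded RNA, brought into the cells with lipofectamine 2000. The labels state its dose as 1 mg/ml. The sources used here do not say how the deficiency was made or whether the deficient cells are 1 clone. There is no unstimulated culture among the samples analysed, so no value gives the response to poly(I:C).

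With 1 array per genotype there is no spread between replicates and no test, so the precision of every value is limited by the number of arrays. Paired values are log2 signals, wildtype first, and differences are HuR-deficient by label minus wildtype. The share of the 500 genes nearest in mean signal that differed by at least as much is given as a description. The targeted gene did not separate the arrays (Elavl1 7.68 and 7.75, difference 0.07), and the part of the gene its probe set reads is not known here, so the genotype rests on the label. The median difference of all named genes was 0.00, and the central 95% of them lay between -0.78 and 0.75. Of 10 macrophage markers, 9 passed the floor, among them Cd68 (11.55 and 11.34), Lyz2 (12.34 and 12.20) and Csf1r (6.67 and 6.61), and Mertk did not. Adgre1, which encodes F4/80, differed most among them (4.94 and 6.51, difference 1.57), and Itgam was lowest (4.86 and 4.53, difference -0.33).

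MHC class I molecules sit on nearly all cells and show peptides from the cell's own cytosol to CD8+ T cells. The peptides are cut by the proteasome, pumped into the endoplasmic reticulum by the TAP transporter, trimmed, and fitted into a heavy chain that is paired with beta-2 microglobulin. MHC class II molecules are made by professional antigen-presenting cells such as dendritic cells, B cells and activated macrophages, and show peptides from the endosome to CD4+ T cells. Interferons are known inducers of both pathways. Class II and, in part, class I genes are controlled through a promoter module of S, X and Y boxes, read by the RFX complex, CREB and NF-Y under the coactivators CIITA (class II) and NLRC5 (class I). RAW264.7 cells come from a BALB/c background, whose MHC alleles differ from those of the reference strain C57BL/6J. The fit of the probes to these alleles was not tested, and it is shared by both arrays.

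Promoter windows, 250 bases before to 50 after the annotated start, are shown for genes on which the results below turn: the class I light chain gene B2m, the non-classical heavy chain gene H2-T23, the transporter gene Tap1 and the class II chain genes H2-Aa and H2-Eb1. They are RefSeq sequences of build GRCm38.p6, printed 5′ to 3′ on the strand of the gene. Capitals mark matches, on either strand, to the core of the interferon-stimulated response element (ISRE: GAAA and GAAA with any 2 bases between them), TTCNNNGAA (gamma-activated site), CCAAT (core of the Y box, which NF-Y binds) or TGACG (core of the cyclic AMP response element, part of the X box). A match on the opposite strand reads as the reverse complement, for example ATTGG.
B2m, chr2:122147437-122147736, plus strand: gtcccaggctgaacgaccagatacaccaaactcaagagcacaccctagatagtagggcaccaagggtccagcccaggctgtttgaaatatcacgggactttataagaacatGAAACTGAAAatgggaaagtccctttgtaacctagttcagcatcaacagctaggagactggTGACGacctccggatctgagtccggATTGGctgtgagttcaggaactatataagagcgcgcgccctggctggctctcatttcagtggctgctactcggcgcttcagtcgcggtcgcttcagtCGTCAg
H2-T23, chr17:36032652-36032951, minus strand: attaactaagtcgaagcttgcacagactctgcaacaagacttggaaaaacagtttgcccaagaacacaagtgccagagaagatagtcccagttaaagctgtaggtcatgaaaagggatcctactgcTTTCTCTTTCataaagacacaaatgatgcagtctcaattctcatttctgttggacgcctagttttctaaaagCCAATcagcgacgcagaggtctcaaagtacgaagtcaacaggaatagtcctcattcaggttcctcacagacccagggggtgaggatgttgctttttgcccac
Tap1, chr17:34187306-34187605, plus strand: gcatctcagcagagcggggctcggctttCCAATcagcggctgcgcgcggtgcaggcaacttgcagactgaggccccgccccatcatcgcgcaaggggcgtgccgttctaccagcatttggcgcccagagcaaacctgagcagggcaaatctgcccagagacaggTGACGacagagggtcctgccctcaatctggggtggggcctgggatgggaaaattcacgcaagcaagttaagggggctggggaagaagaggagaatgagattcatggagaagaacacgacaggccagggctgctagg
H2-Aa, chr17:34287774-34288073, minus strand: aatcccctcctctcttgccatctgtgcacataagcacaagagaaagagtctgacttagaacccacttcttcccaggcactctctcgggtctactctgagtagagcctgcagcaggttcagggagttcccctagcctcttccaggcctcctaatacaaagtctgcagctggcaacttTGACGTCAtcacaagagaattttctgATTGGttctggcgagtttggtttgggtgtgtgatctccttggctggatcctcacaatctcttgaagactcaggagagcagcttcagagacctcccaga
H2-Eb1, chr17:34305617-34305916, plus strand: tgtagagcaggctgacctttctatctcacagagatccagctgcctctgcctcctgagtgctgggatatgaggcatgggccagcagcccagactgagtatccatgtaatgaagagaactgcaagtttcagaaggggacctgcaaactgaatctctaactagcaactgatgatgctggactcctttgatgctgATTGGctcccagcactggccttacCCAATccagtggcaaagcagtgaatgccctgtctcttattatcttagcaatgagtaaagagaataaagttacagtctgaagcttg

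Of the 51 genes, 39 matched 44 such windows by gene ID. CCAAT was present in 32 of the 44 windows (72.7%), against 37.4% of 32851 windows of all genes, and TGACG in 17 (38.6%), against 20.8%. All 8 class II chain genes with a window held CCAAT, while TGACG was found in H2-Aa alone among them. The ISRE core was in 5 windows (11.4%, against 3.44% of all), those of B2m, H2-T23, Erap1, Psme1 and Ctss, and TTCNNNGAA in 4 (9.09%, against 8.30%), those of H2-M3, H2-M11, Psmb8 and H2-DMb2. No match to 1 of these motifs overlapped a match to another in the member windows. In H2-Aa, the forward and reverse matches to TGACG overlap each other in 1 run of capitals. Many of these windows belong to related genes and are not independent of each other. The windows of Tap1 and of its neighbour Psmb9, which is read from the opposite strand, share 275 bases, so 1 stretch of DNA stands before both genes.

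Across all 51 genes, 31 differences were above 0, 19 below and 1 equal to 0. The share above 0 was 60.8%, against 49.2% of all named genes, and the median difference was 0.20. Of the 34 that passed the floor, 2 had a signal at least 2-fold above wildtype (5.88%, against 0.882% of 11905 named genes past the floor), H2-Ea and H2-T10. None was at least 2-fold lower, against 1.11% of named genes. At a 1.5-fold threshold, 5 of the 34 were higher (14.7%, against 5.44%), H2-Ea, H2-T10, H2-T23, Tapbpl and H2-Oa, and 1 was lower (2.94%, against 5.32%), H2-K2. A gene that reaches the floor only on the array where it is high, as H2-T10 and H2-Oa did, had to differ, so the counts are given with no floor as well. With no floor, 2 of 51 were at least 2-fold higher (3.92%, against 0.834% of all named genes) and none was lower (against 1.05%). At 1.5-fold, 6 were higher (11.8%, against 5.61%), H2-DMb1 being the further one, and 2 were lower (3.92%, against 5.36%), H2-M10.1 being the further one.

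**Figure D1:**
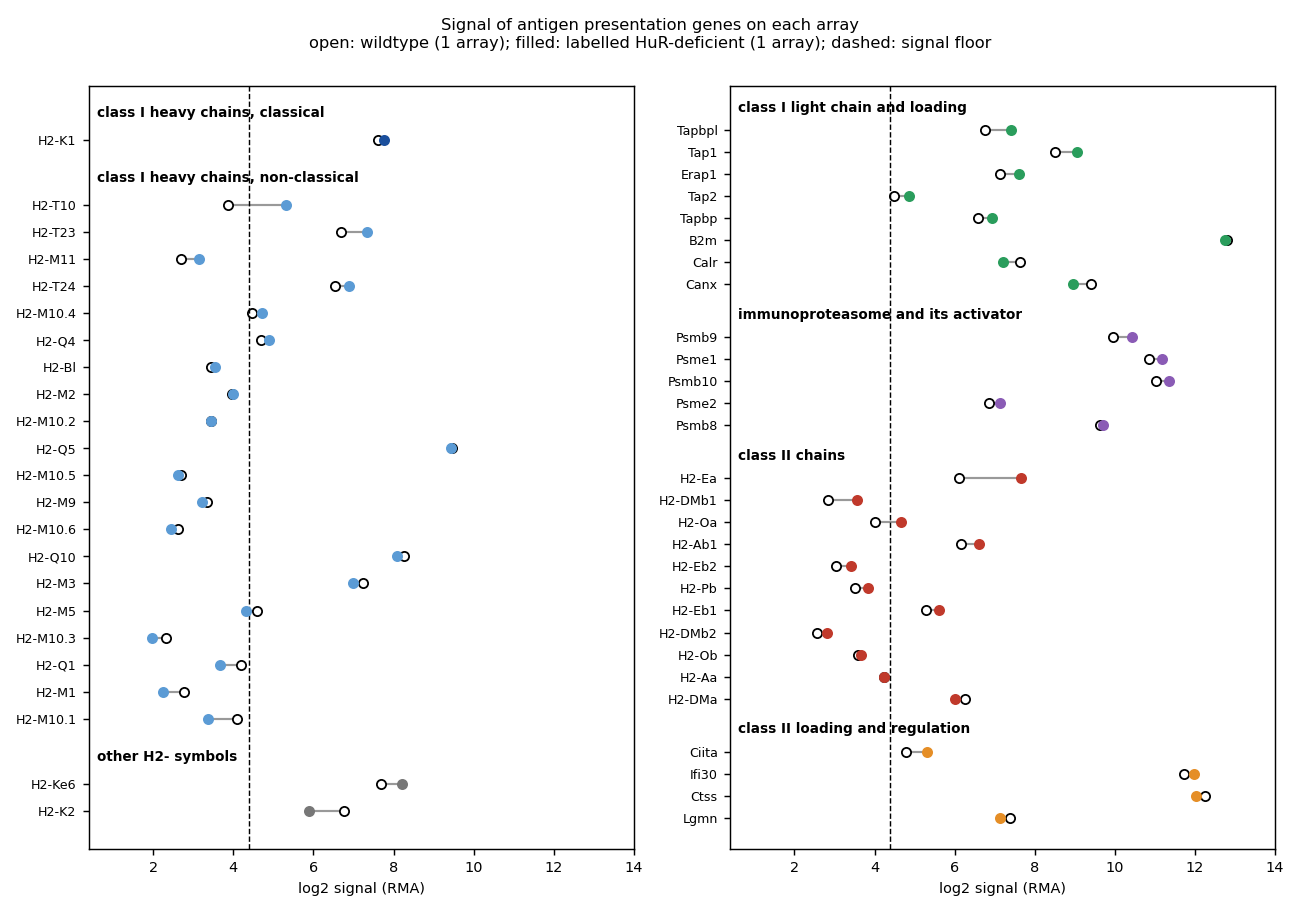
Log2 signal of the 51 genes on each array, by role, with the wildtype array as open points, the array labelled HuR-deficient as filled points and the signal floor of 4.38 as a dashed line. The signals of all 5 immunoproteasome and activator genes are higher on the array labelled HuR-deficient, and the longest lines are those of H2-Ea and H2-T10.

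The class I heavy chain genes did not move together. Among 21 measured, 9 differences were above 0, 11 below and 1 equal to 0, with a median of -0.04. The pseudogene H2-K2, which was lower on the array labelled HuR-deficient, is not among the 21 and is described further below. H2-K1, which encodes a classical heavy chain that presents peptides to CD8+ T cells, had signals of 7.62 and 7.77. Its difference of 0.15 was small beside genes of like signal, since 63.6% of the 500 genes nearest in mean signal differed by at least as much. H2-D1, the other classical gene of the reference strain, was read only by a probe set that also names H2-Q2, with 3.64 and 3.77.

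H2-T23 encodes Qa-1, a non-classical class I molecule that shows leader peptides of other class I chains to the CD94/NKG2A receptor of NK cells. Its signals were 6.68 and 7.33, 1.57-fold apart (difference 0.66), and 7.2% of the nearest 500 genes differed by as much. H2-T24, its neighbour in gene order, stood at 6.54 and 6.89 (difference 0.35). H2-T10 (Entrez Gene 15024), which is annotated as a transcribed pseudogene in the reference strain, had 3.87, under the floor, and 5.30. The difference was 1.43, or 2.70-fold, and none of the nearest 500 genes differed by as much. All 3 H2-T genes of single-symbol probe sets were higher on the array labelled HuR-deficient. The probe set for H2-T22 and H2-T9 together, which are close relatives of H2-T10, went the other way (9.81 and 9.65, difference -0.15), and that for H2-T3 and H2-T18 gave 3.18 and 2.89.

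The H2-Q genes, which include the Qa-2 family, were read by several kinds of probe set, and those of a single symbol that passed the floor differed by -0.18 to 0.20. H2-Q5, a transcribed pseudogene in the reference strain, had 9.46 and 9.43 (difference -0.04). H2-Q10, which encodes a class I molecule secreted by the liver, had 8.26 and 8.07 (-0.18). H2-Q4 had 4.70 and 4.89 (0.20). H2-Q1 was under the floor on both arrays, with 4.19 and 3.66 (-0.53). The genes H2-Q4, H2-Q5 and H2-Q10 each had a further, dimmer probe set, which gave differences of 0.12, 0.00 and 0.00, so no probe set of these 3 genes reached 1.5-fold. H2-Q6, H2-Q7, H2-Q8 and H2-Q9 were read only by probe sets with several symbols. Of these, the brighter one for H2-Q7, H2-Q8 and H2-Q9 gave 11.20 and 11.47 (difference 0.27). The dimmer one gave 3.79, under the floor, and 4.96 (difference 1.16). The probe set for H2-Q6 and H2-Q8 gave 6.33 and 6.36 (0.04). Heavy chain genes are close in sequence, and probes may read transcripts of relatives, so the values of single H2-Q and H2-T genes are uncertain as to which transcript they count.

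The H2-M genes formed the dim end of the class I genes. Of 12 measured, 9 were under the floor on both arrays, and these 9 ran from -0.72 (H2-M10.1, 4.08 and 3.36) to 0.47 (H2-M11, 2.69 and 3.15). The H2-M1, H2-M9, H2-M10 and H2-M11 genes are known for expression in sensory neurons of the vomeronasal organ. H2-M3 encodes a chain that presents formylated bacterial peptides, and its signal was well over the floor, with 7.24 and 6.99 (difference -0.26). H2-M5 (4.59 and 4.33, difference -0.27) and H2-M10.4 (4.47 and 4.72, difference 0.25) lay near the floor. Without the H2-M1, H2-M9, H2-M10 and H2-M11 genes, a choice made after seeing the data, the median of the class I heavy chain genes was 0.07 in place of -0.04, and over the 10 heavy chain genes past the floor it was 0.17. The sign of this median thus depends on dim genes, and H2-Bl, with 3.44 and 3.55, is another of them.

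B2m encodes beta-2 microglobulin, the light chain shared by all class I molecules. Its signals were 12.80 and 12.74, a difference of -0.06. They lay at percentile 99.8 of all named genes on each array, and saturation at such signals was not tested.

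Of the 8 genes of the class I light chain and peptide loading, 5 had a higher signal on the array labelled HuR-deficient and 3 a lower one, with a median difference of 0.36. Tap1 and Tap2 encode the subunits of the peptide transporter. Tap1 had 8.51 and 9.04 (difference 0.53, 1.45-fold), and Tap2 had 4.49 and 4.86 (0.38). Tapbp encodes tapasin, which bridges the transporter and the empty heavy chain, and had 6.57 and 6.92 (difference 0.35). Its further probe set gave a similar difference of 0.32. Tapbpl encodes TAPBPR, a tapasin-related peptide editor, and had 6.76 and 7.41 (difference 0.65, 1.57-fold), with 7.0% of the nearest 500 genes differing by as much. Erap1 encodes the aminopeptidase that trims peptides in the endoplasmic reticulum, and had 7.14 and 7.60 (difference 0.46, 1.38-fold). These 5 genes of transport, editing and trimming were thus each higher by 1.27-fold to 1.57-fold, and none reached 2-fold. Calnexin and calreticulin, lectin chaperones that fold heavy chains and many other glycoproteins, went the other way. Canx had 9.41 and 8.95 (difference -0.46), and Calr had 7.64 and 7.20 (difference -0.44). The third gene below 0 was B2m.

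The wider list of peptide loading and trimming genes did not share the direction of the transporter. Its 14 measured genes had a median of -0.05, with 5 above 0, 9 below and none at 1.5-fold. The highest was Lap3, an interferon-inducible cytosolic aminopeptidase (9.05 and 9.48, difference 0.43). The lowest was Hspa5, the chaperone BiP (8.50 and 7.98, difference -0.52). Hsp90b1, which encodes GRP94, differed by -0.44, and Pdia3, which encodes the oxidoreductase ERp57 of the loading complex, by -0.38. The signals of these 3 genes and of Canx and Calr differed by -0.52 to -0.38. These 5 were picked out after their values were seen, and none reached 1.5-fold. Other folding genes of the list did not share their values: Prkcsh, a glucosidase subunit, differed by 0.29, Ganab, its partner, by 0.05, and Uggt1, a folding sensor, by -0.06.

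All 5 genes of the immunoproteasome and its activator were higher on the array labelled HuR-deficient, with a median of 0.32. The immunoproteasome is the interferon-inducible form of the proteasome, in which the subunits Psmb8, Psmb9 and Psmb10 take the places of Psmb5, Psmb6 and Psmb7. Psmb9 had 9.96 and 10.44 (difference 0.47, 1.39-fold), Psmb10 had 11.02 and 11.34 (0.32), and Psmb8 had 9.63 and 9.71 (0.08). Psme1 and Psme2 encode the PA28 activator, which opens the proteasome and favours class I peptides. Psme1 had 10.84 and 11.16 (difference 0.32), and Psme2 had 6.87 and 7.13 (0.26). None reached 1.5-fold, and 10.0% of the 500 genes nearest to Psmb9 in signal differed by as much as it did.

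The constitutive counterparts of the 3 subunits lay slightly below 0, and Psme3, set beside both activator genes, lay above it. Psmb5 differed by -0.11, Psmb6 by -0.13, Psmb7 by -0.13 and Psme3 by 0.11. Within the pairs, the difference of the inducible subunit exceeded that of the constitutive one by 0.60 for Psmb9 and Psmb6, by 0.45 for Psmb10 and Psmb7 and by 0.19 for Psmb8 and Psmb5. The gap to Psme3 was 0.21 for Psme1 and 0.14 for Psme2. The 16 measured genes of the constitutive proteasome list had a median of -0.06, with 7 above 0 and 9 below and none at 1.5-fold. They ran from Psme4, an activator of the nuclear proteasome (5.83 and 5.29, difference -0.53), to the core subunit gene Psma5 (4.64 and 4.93, difference 0.29).

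**Figure D2:**
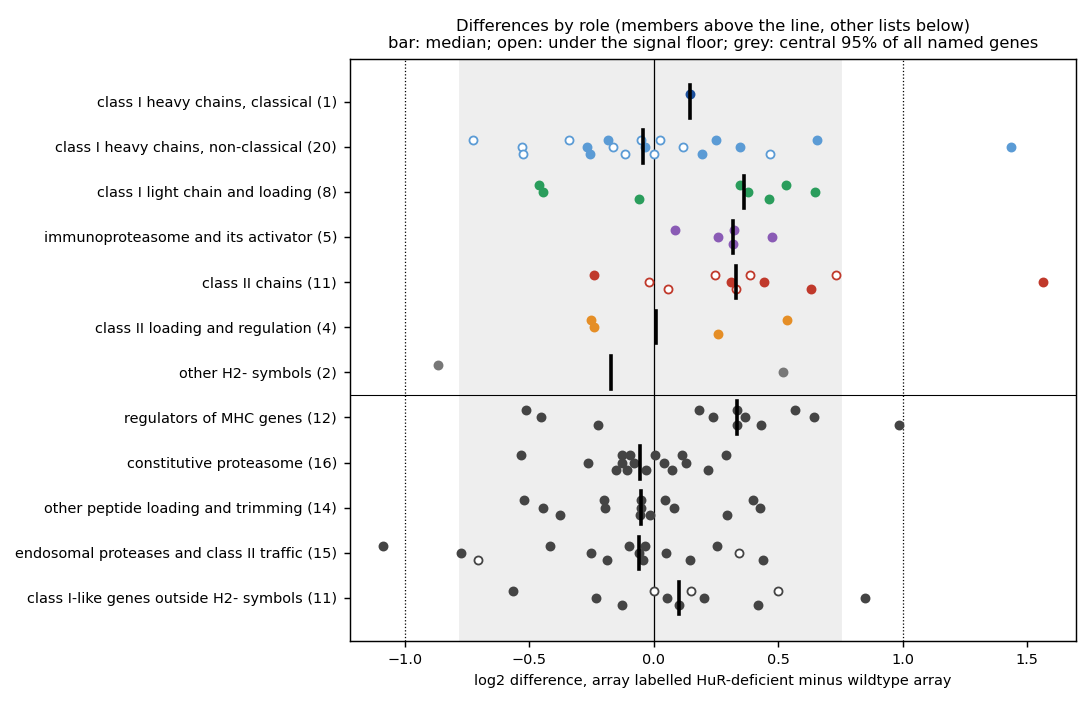
Log2 difference (HuR-deficient by label minus wildtype) of each gene by role, members above the horizontal line and other lists below, with the number of genes in brackets, a bar at each median and the central 95% of all named genes in grey. The immunoproteasome genes lie between 0.08 and 0.47, while the constitutive proteasome genes have a median of -0.06.

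Class II chain genes were mostly higher on the array labelled HuR-deficient: 9 of 11 differences were above 0 and the median was 0.33. That share is 81.8%, against 49.2% of all named genes. H2-Ea (Entrez Gene 100504404) encodes the alpha chain of the I-E class II molecule. It is annotated as a transcribed pseudogene in the reference strain C57BL/6J but is functional in BALB/c mice. Its signals of 6.10 and 7.67 were both over the floor. The difference of 1.56, or 2.96-fold, was the largest among the 51 genes, and 1.2% of the nearest 500 genes differed by as much. H2-Eb1, which encodes the beta chain that pairs with it, differed much less, with 5.29 and 5.60 (difference 0.31).

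The chains of the I-A molecule did not match each other. H2-Ab1, the beta chain gene, had 6.16 and 6.60 (difference 0.44, 1.36-fold), while H2-Aa, the alpha chain gene, had 4.24 and 4.22, under the floor on both arrays (difference -0.02). H2-DMa encodes a chain of the H2-M molecule, which exchanges the invariant chain peptide for antigen, and had 6.25 and 6.01 (difference -0.24). Its partner genes H2-DMb1 (2.83 and 3.56, difference 0.73) and H2-DMb2 (2.57 and 2.82, difference 0.25) were under the floor. H2-Oa, which encodes a chain of the H2-O inhibitor of H2-M, had 4.02 and 4.65 (difference 0.63), from a wildtype signal under the floor, and its partner H2-Ob stayed under it with 3.60 and 3.65. A second, several-symbol probe set for H2-Oa and BC051537 gave 3.52 and 3.89. H2-Eb2 (3.04 and 3.42, difference 0.39) and H2-Pb (3.51 and 3.84, difference 0.33) were also dim. In all, 6 of the 11 class II chain genes were under the floor on both arrays, and of the 5 that passed it, 4 were above 0 and H2-DMa below.

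The genes that serve class II molecules were divided. Ciita, the coactivator that switches class II genes on, had 4.78 and 5.31 (difference 0.53, 1.45-fold), and 16.0% of the nearest 500 genes differed by as much. Ifi30 encodes GILT, the interferon-inducible thiol reductase that opens disulphide bonds of antigens, and had 11.72 and 11.98 (difference 0.26). Ctss encodes cathepsin S, the protease that trims the invariant chain, and had 12.25 and 12.01 (difference -0.24). Lgmn encodes legumain, an asparagine-specific endosomal protease, and had 7.37 and 7.12 (difference -0.25). The median of these 4 was 0.01. Cd74 encodes the invariant chain itself, which guides class II molecules to the endosome. The probe set that names Cd74 together with the microRNA gene Mir5107 had 8.79 and 9.57, a difference of 0.78 or 1.72-fold. That is higher than the difference of any class II chain gene except H2-Ea.

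In the list of endosomal proteases and class II traffic genes, 10 of 15 were below 0 and the median was -0.06. The share above 0 was 33.3%, against 49.2% of all named genes. Ctsb, which encodes cathepsin B, was 2.13-fold lower (10.42 and 9.33, difference -1.09). Ctsc, which encodes cathepsin C, an activator of granule proteases, was 1.71-fold lower (8.42 and 7.65, difference -0.78). Ctsd, the cathepsin D gene, differed by -0.42. Ctsh lay highest among those past the floor, at 0.44 (4.05 and 4.49), but it reached the floor only on the array where it is high. Ctsk, under the floor, differed by -0.70. Ctsb was the only gene of the list at 2-fold.

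Regulators of MHC genes were mostly higher, with 9 of 12 above 0 and a median of 0.33, and none reached 2-fold. Irf8, a transcription factor of macrophages and dendritic cells, had 9.03 and 10.02 (difference 0.98). Rfxap, a subunit of the RFX complex that binds the X box, had 6.27 and 6.91 (difference 0.64), while Rfxank differed by 0.37 and Rfx5 by 0.24. Nlrc5, the class I coactivator, had 5.14 and 5.32 (difference 0.18), less than Ciita. Irf1 differed by 0.33 and Irf2 by 0.57. The NF-Y subunits, which bind the CCAAT box, split, with Nfya at 0.43, Nfyb at -0.45 and Nfyc at -0.22. Creb1 lay lowest (5.94 and 5.43, difference -0.51).

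Class I-like genes outside the H2- symbols had a median of 0.10 over 11, with 7 above 0. Fcgrt, which encodes the neonatal Fc receptor that rescues IgG and albumin from breakdown, was 1.80-fold higher (5.29 and 6.14, difference 0.85). Mill2 was lowest of those past the floor (4.43 and 3.87, difference -0.56), and Mr1, which presents vitamin B metabolites, had 4.63 and 4.39. Mill2 reached the floor only on the wildtype array, where it is high.

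Markers of cell types other than macrophages, among them types that carry much class II, were read as well. Of 7 measured B cell markers, 1 passed the floor, Pax5, and their mean signals were 3.83 and 3.70. Of 8 dendritic cell markers, 4 passed, with means of 4.58 and 4.56. Among these, Cd209a had 5.66 and 5.68. Xcr1 differed most upward (0.13) and Siglech most downward (-0.15), while Flt3, Itgax, Zbtb46 and Batf3 did not reach the floor. Siglech (4.53 and 4.37) reached it only on the wildtype array. Of 8 T and NK cell markers, 2 passed, and the means of the 8 were 3.80 and 3.70. The 2 were Cd3d (3.96 and 4.48, difference 0.52) and Cd3e (4.33 and 4.46, difference 0.13). Both reached the floor only on the array labelled HuR-deficient, so their differences had to be above 0. Of 9 markers of fibroblasts, epithelium and endothelium, 4 passed (means 4.37 and 4.07), from Krt18 (4.66 and 4.05, difference -0.61) to Col1a1 (4.45 and 4.61, difference 0.16). Krt18 reached the floor only on the wildtype array, where it is high. Under the floor, the markers past 1.5-fold were Klrb1c (-1.21), Fcer2a (-0.61) and Mertk (0.73). By their labels both cultures are the RAW264.7 line. The purity of the cultures, and what these marker signals count, were not tested. In bulk RNA, fewer cells with a transcript and less of it per cell cannot be told apart.

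**Figure D3:**
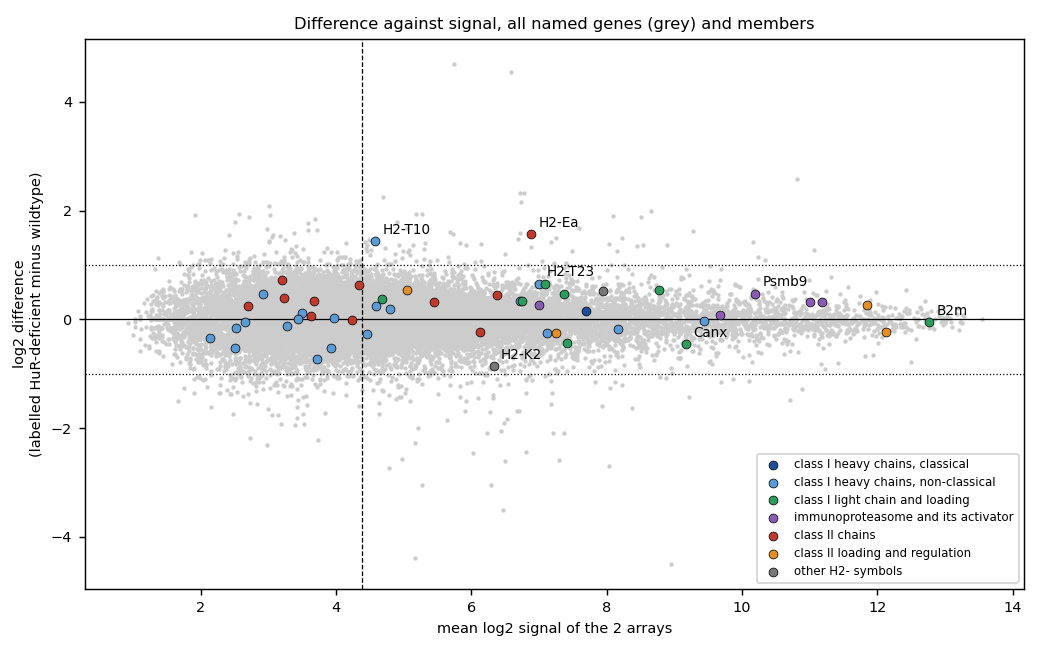
Log2 difference (HuR-deficient by label minus wildtype) against the mean log2 signal of the 2 arrays for all 22180 named genes (grey) and the 51 members (coloured by role), with 2-fold as dotted lines and the signal floor as a dashed line. H2-Ea and H2-T10 lie beyond the 2-fold line, at 1.56 and 1.43, and all other members lie within it.

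The H2- symbols also take in H2-K2 and H2-Ke6, which have no antigen-presenting chain as their annotated product. Groups were set by symbol. The transcribed pseudogenes H2-T10, H2-Q5 and H2-Bl were therefore counted with the class I heavy chains, and H2-K2 was not. H2-K2, a transcribed pseudogene near H2-K1 in gene order, had 6.77 and 5.90 (difference -0.87, 1.82-fold lower), the largest negative difference of the 51 genes, and 3.2% of the nearest 500 genes differed by as much. H2-K1 itself differed by 0.15. H2-Ke6 encodes a hydroxysteroid dehydrogenase and was named for its place, and it had 7.68 and 8.20 (difference 0.52).

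Most members are neighbours on chromosome 17. In the RefSeq gene order of GRCm38.p6, used here only for order, 184 measured genes run from Tapbp to H2-M2, and 38 of them are members. The 15 measured genes from H2-Oa to H2-Ea hold 14 members, all but Brd2. Of these 14, 12 were above 0 (85.7%, against 49.2% of all named genes), with a median of 0.38, and H2-DMa and H2-Aa were below. Past the floor were 9 of the 14, with 8 above 0. Most of the 14 are class II chain genes already described. This run holds the adjacent genes Psmb9, Tap1, Psmb8 and Tap2, with differences of 0.47, 0.53, 0.08 and 0.38. All 4 are above 0. Over all 38 members of the stretch, 60.5% were above 0 and the median was 0.13, while the 146 other genes between them had 55.5% above 0 and a median of 0.07. Of the 95 others past the floor, 4 were at least 2-fold higher and none was lower, against 0.882% and 1.11% of named genes past the floor. They were Aif1 (7.86 and 9.22), Lst1 (9.45 and 10.88), Ltb (5.56 and 7.89) and the pseudogene Rbx1-ps (3.22 and 4.52). The first 3 stand side by side, and Rbx1-ps reached the floor only on the array where it is high. The 13 members with no place in the stretch had a median of 0.26, with 8 above 0. H2-Pb (difference 0.33) is counted among them because it had no position in the gene order used, so its place is not known here.

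**Figure D4:**
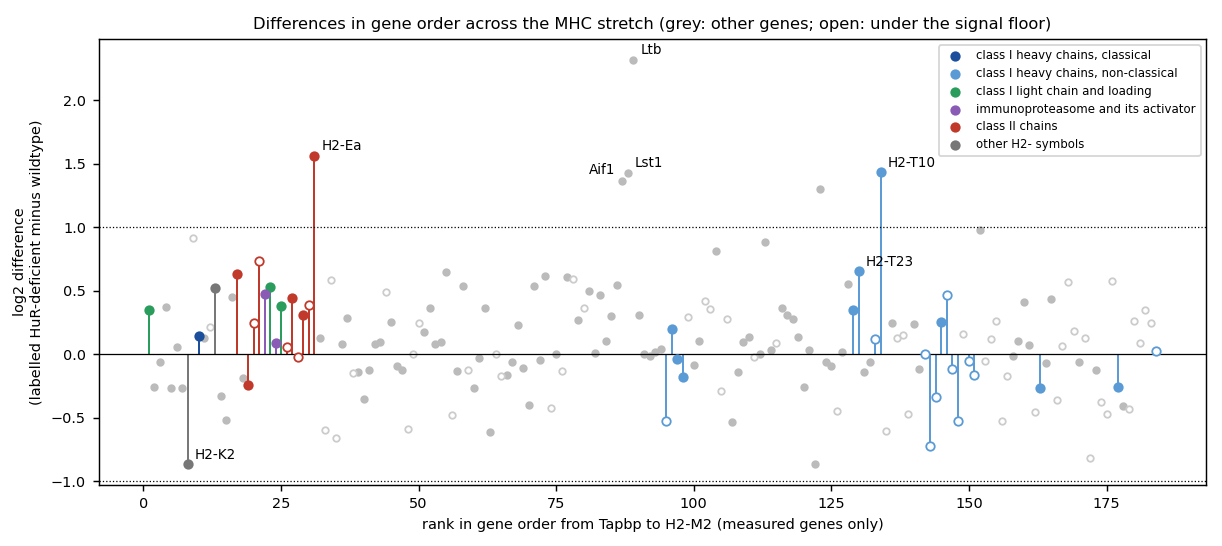
Log2 difference (HuR-deficient by label minus wildtype) of the 184 measured genes from Tapbp to H2-M2, by rank in gene order, with members coloured by role, other genes in grey and open points for genes under the signal floor. The members from H2-Oa to H2-Ea, at ranks 17 to 31, lie above 0 except H2-DMa and H2-Aa, and Aif1, Lst1 and Ltb form a run of other genes between 1.37 and 2.32.

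Set beside their promoters, the 5 genes with the ISRE core differed by 0.66 (H2-T23), 0.46 (Erap1), 0.32 (Psme1), -0.06 (B2m) and -0.24 (Ctss). These values lay on both sides of 0. The 8 class II chain genes with CCAAT ran from -0.24 (H2-DMa) to 0.73 (H2-DMb1, under the floor on both arrays). H2-DMa and H2-Aa were the ones below 0. H2-Ea, H2-Ab1 and H2-Pb had no window. Whether these motifs bear on the differences was not tested.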

How the data were processed

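Each array has a deposited column of log2 values. The submitters' processing notes name RMA as the authors' tool, with version, build and annotation not given in the sources used here. This method corrects background, brings the arrays to a common distribution and summarises probes, so a change in total mRNA cannot be seen. The 2 deposited columns were close but not identical in distribution, with a largest difference of 0.12 between their sorted values. That the scale is log2 was read from the range of the values. Names came from GEO's platform annotation: of the probe sets, 23521 had 1 symbol, 1814 several and 16010 none. For genes with several single-symbol probe sets, the brightest by mean signal stood for the gene. A gene passed the floor when its higher value reached 4.38.

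The members and lists were chosen with earlier results of these data known. All members past the floor are named, and of other lists the genes past 1.5-fold and the highest and lowest past the floor; others were picked after their values were seen, and so were the genes of the stretch on chromosome 17. No test was possible with 1 array per genotype, and counting and naming steps were tested on simulated data. Alternatives were centring, quantile normalisation, a loess trend (span 0.3), averaged probe sets, other floors and thresholds. Comparison of member proteins was not run. Scripts ran in Python 3.11.15 with pandas 2.3.3, numpy 2.4.6, matplotlib 3.10.9 and statsmodels 0.14.6.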

Additional observations from a re-analysis of the deposited data

Results flagged for a closer look

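A signal outside the comparisons of single-symbol probe sets differed between the arrays. The dimmer of the probe sets that name H2-Q7, H2-Q9 and H2-Q8 together (probe set 17337133) had log2 signals of 3.79 (wildtype, under the signal floor of 4.38) and 4.96 (HuR-deficient by label), a difference of 1.16, or 2.24-fold. It reached the floor only on the array where it is high. The brighter probe set for the same genes differed by 0.27. Of 10 probe sets with several symbols that name a member, 8 were above 0, and this was the one at 2-fold.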

How the results depend on the processing

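Averaging of probe sets, centring, loess correction and renewed quantile normalisation kept the sign of each group median and each count within 1.5 times, and no member's difference moved by more than the robust SD of the 500 genes nearest in signal. The largest shift was 0.09, and the loess correction turned the sign of 1 member. The medians that changed sign did so with the floor or with the choice of genes. For the class I heavy chains, the median of -0.04 became 0.17 with members past the floor or with both arrays at it, 0.055 with a floor at the 75th percentile, and 0.070 without the H2-M1, H2-M9, H2-M10 and H2-M11 genes. For the non-classical ones alone, -0.04 became 0.20 past the floor or with both arrays at it. The class II chains moved from 0.33 to 0.44 past the floor and at the 75th percentile, and to 0.38 with both arrays at the floor. Class II loading and regulation moved from 0.01 to -0.24 at the 75th percentile, where Ciita is left out. Fewer genes enter these medians, and some of those left out differ in sign.

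Members at least 2-fold higher numbered 1 with a floor at the 75th percentile (H2-Ea) and 1 with both arrays at the floor, 5 at 1.5-fold (1 lower) and 0 at 3-fold. Members above 0 numbered 16 of the 26 that reach the 75th percentile, against 31 of 51. Over all named genes, 105 higher and 132 lower became 185 and 232 with no filter, 63 and 86 at the 75th percentile, 55 and 76 with both arrays at the floor, 648 and 633 at 1.5-fold and 22 and 33 at 3-fold. The alternative without near-identical proteins was not run, for want of protein sequences in the tables used here. No paired analysis was possible because each genotype has 1 array. Signal over background limits the dim genes, 17 of 51 members being under the floor.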
